A study of Mus musculus with 6 samples.

Results

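The genes described here code for the machinery of oxidative phosphorylation: the subunits of respiratory complexes I to IV, cytochrome c and the ATP synthase (complex V), together with proteins that share their gene names. They were chosen by mouse gene symbol, as every gene beginning with Nduf, Sdha to Sdhd, Uqcr, Cox and a digit, Atp5, mt-Nd, mt-Co, mt-Cytb or mt-Atp, plus Cyc1 and Cycs, with pseudogenes left out. The rule names genes and uses no measured value. It gave 122 of the 29370 genes in the deposited matrix: 13 subunits encoded by mitochondrial DNA, 87 subunits encoded in the nucleus, and 22 assembly factors or other proteins that carry the same symbol stem. CD8+ T cells of WT mice, taken from pancreas, spleen and lymph nodes, were kept for 48 h in T cell medium with 100 µM palmitate or in control medium, and RNA was sequenced from 3 libraries per group. The vehicle of the control, the strain, sex and age of the mice, and whether libraries came from separate animals or cultures are not given in the sources used here. All p-values therefore rest on the spread between these 6 libraries, part of which may be technical.

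Complexes I and II pass electrons from NADH and succinate to ubiquinone, complex III passes them on to cytochrome c, and complex IV hands them to oxygen. Complexes I, III and IV pump protons across the inner membrane of the mitochondrion, and complex V uses their return to make ATP. Mitochondrial DNA codes for core membrane subunits of complexes I, III, IV and V, while all of complex II comes from the nucleus, so that most complexes are assembled from the products of both genomes. In CD8+ T cells this machinery is known to grow after activation and to support the long life of memory cells.

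The deposited gene matrix held from 16724588 reads, in palmitate library 3, to 29362276 reads, in control library 3. Summed markers of CD8+ T cells reached 7030 to 8803 CPM (counts scaled to a common library size) in the controls and 5505 to 6366 CPM with palmitate, while of the 8 genes 5 rose and 1 fell. Over all tested genes 11.1% rose and 11.7% fell in the same test, which is given below. B and plasma cell markers summed to 172 to 242 CPM in the controls and 273 to 311 CPM with palmitate, and 3 of their 7 tested genes rose. Erythroid markers summed to 1.09 to 2.03 CPM and 4.41 to 6.64 CPM, in that order, and CD4 T cell markers to 1.96 to 2.81 CPM and 3.70 to 6.72 CPM. Natural killer cell markers summed to 167 to 185 CPM and 143 to 162 CPM, myeloid markers to 2.49 to 4.85 CPM and 4.03 to 4.48 CPM, and pancreas markers to 1.24 to 1.90 CPM and 1.45 to 2.86 CPM. C1qa, Ins2 and Sst had no read in any library. The part of these other cell types in the results was not tested, and in such bulk libraries fewer cells of a type and less RNA per cell cannot be told apart.

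Most genes of oxidative phosphorylation did not pass the test between palmitate and control. Of the 115 that had enough reads to be tested, 8 rose and 12 fell with palmitate, and 95 did not pass (edgeR's quasi-likelihood test, Benjamini-Hochberg adjusted p under 0.05 over 12068 genes). Over all tested genes 22.9% passed, 11.1% as higher and 11.7% as lower. These shares are also the background of the counts by complex below. The 20 of 115 called here stand near that background, and their median log2 fold change was -0.05 against 0.02 for all genes tested. With the replicate number as a block, which pairs the libraries, the counts were 10 higher and 16 lower, where 16.5% and 16.6% of all genes were. DESeq2 called 8 and 16 (12.0% and 14.5% of all genes), limma-voom 8 and 10 (10.9% and 11.1%), upper-quartile scaling 9 and 8 (13.7% and 8.72%), and reads summed over each gene's transcripts with length offsets 5 and 10 (9.25% and 10.4%). Of the tested genes, 24 had every palmitate library below every control library and 11 had every palmitate library above, where 21.2% and 21.6% of all tested genes did so.

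**Figure D1:**
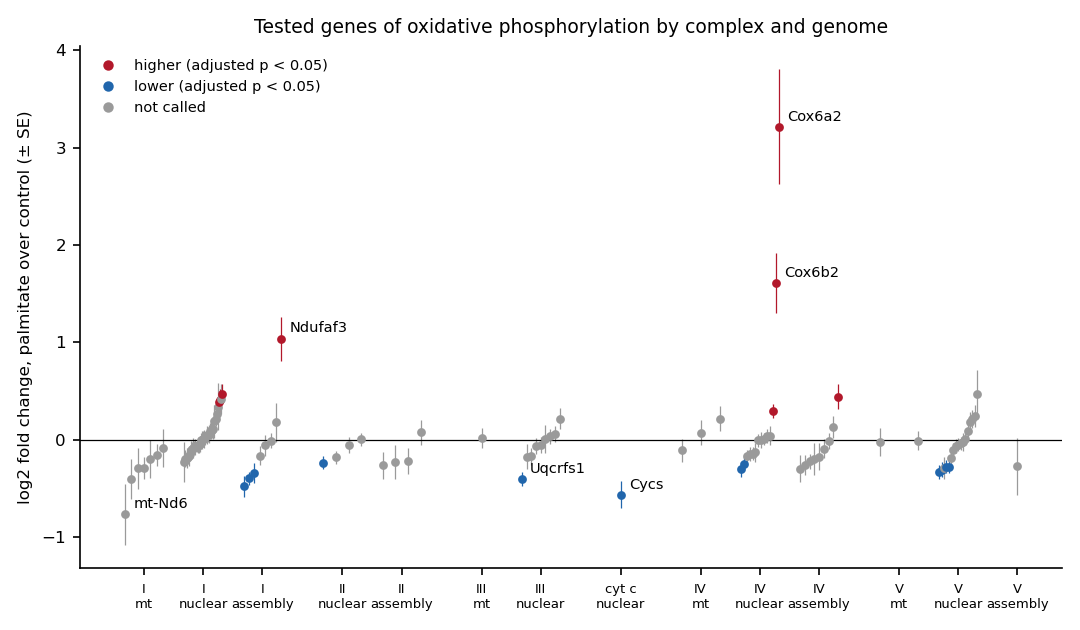
Log2 fold change, palmitate over control, of each of the 115 tested genes of oxidative phosphorylation (points, with bars of 1 SE from the fit on 3 libraries per group), arranged by complex and by mitochondrial subunit, nuclear subunit or assembly factor and other protein. Red points rose (8 genes), blue points fell (12 genes) and grey points did not pass the test, and most of the grey points lie close to 0.

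The calls rested on few libraries. Without control library 3, 1 of the 115 genes was called (Ndufaf4, lower), while 2.79% of all genes were called as higher and 2.80% as lower. Of the 20 calls, 19 were lost without that control, 13 without control library 2, 2 without control library 1, and 11, 11 and 14 without palmitate libraries 1, 2 and 3. The complex I assembly factor Ndufaf4 was called in 6 of 6 such fits, and Uqcrfs1, Cox6a2 and Cox6b2 in 5 of 6. The number of these fits that kept a call is given below beside each gene, and the sign of none of the 20 changed in them.

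None of the 13 mitochondrially encoded subunits passed the test (0 of 13 with edgeR's quasi-likelihood test, 2 lower at an unadjusted p under 0.05, 0 with limma-voom and 2 lower with DESeq2). The groups overlapped for all 13. The 7 of complex I had negative log2 fold changes, from -0.09 for mt-Nd3 to -0.77 for mt-Nd6, with a median of -0.29. The other 6 lay between -0.11, for mt-Co2, and 0.22, for mt-Co3.

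Mt-Nd1, a membrane core subunit of complex I next to the site where ubiquinone binds, had 517, 679 and 663 CPM in control libraries 1, 2 and 3 and 482, 496 and 543 CPM in palmitate libraries 1, 2 and 3. Control library 1 lay inside the palmitate range, the other controls above it. The log2 fold change was -0.29 ± 0.11 (SE; adjusted p = 0.0961, edgeR). The replicate block gave -0.28 and an adjusted p of 0.0311, which passes. The proton-pumping subunit mt-Nd2 had 92.1, 144 and 151 CPM in the controls and 80.5, 113 and 99.6 CPM with palmitate, in the same order, so control library 1 was again low. Its log2 fold change was -0.40 ± 0.21 (adjusted p = 0.205, edgeR), and -0.38 with the block (adjusted p = 0.0120). Without control library 1, mt-Nd1, mt-Nd2, mt-Nd4 and mt-Nd5 were all called lower in edgeR's test, as were 14.8% of all genes in that fit. Their log2 fold changes there were -0.41, -0.60, -0.41 and -0.50, at adjusted p of 0.0121, 0.0199, 0.0123 and 0.0163 (edgeR). Each of these genes was called in only 1 of the 6 fits that left out 1 library.

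The remaining complex I genes of this genome spread as widely between libraries. mt-Nd4 had a log2 fold change of -0.20 ± 0.19, mt-Nd4l of -0.16 ± 0.11 and mt-Nd5 of -0.29 ± 0.21 (adjusted p = 0.495, 0.331 and 0.349, edgeR). The most negative, mt-Nd6, is the one subunit read from the other strand of the mitochondrial DNA. It had 17.9, 35 and 20.7 CPM in the controls and 12.1, 11.8 and 19.6 CPM with palmitate. Control library 2 stood above the rest and palmitate library 3 lay among the controls (log2 fold change -0.77 ± 0.31, adjusted p = 0.121, edgeR; 0.0240 with DESeq2).

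Outside complex I the mitochondrial genes lay nearer 0. mt-Co3, a core subunit of complex IV, had 1929, 2033 and 2222 CPM in the controls and 2696, 1931 and 2555 CPM with palmitate, palmitate library 2 being as low as the lowest control. Its log2 fold change was 0.22 ± 0.13 (adjusted p = 0.253, edgeR). The catalytic mt-Co1 gave 0.07 ± 0.13, mt-Co2 -0.11 ± 0.11, the cytochrome b gene mt-Cytb 0.02 ± 0.11, and the membrane subunits of the ATP synthase mt-Atp6 -0.01 ± 0.10 and mt-Atp8 -0.02 ± 0.15, none of which passed (adjusted p from 0.512 to 0.947, edgeR).

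Levels per length, as TPM, spanned over an order of magnitude among these 13 genes. TPM divides reads by the effective transcript length that the program Salmon estimates, and scales them to a common total. The highest were mt-Co3 at 4368 ± 126 TPM in control and 5381 ± 962 with palmitate (SD, n = 3 each), mt-Co1 at 4361 ± 699 and 4753 ± 333, mt-Atp8 at 4313 ± 161 and 4343 ± 807, and mt-Nd3 at 4148 ± 549 and 4020 ± 1134. The order of these 4 changed from library to library. They were followed by mt-Co2 (2015 ± 238 in control), mt-Atp6 (1416 ± 102), mt-Nd1 (1121 ± 129) and mt-Cytb (489 ± 37.4), each above the next in all 6 libraries. The lowest were mt-Nd2 (212 ± 44.9), mt-Nd4 (185 ± 42.7), mt-Nd4l (170 ± 15.8), mt-Nd5 (124 ± 29.9) and mt-Nd6 (113 ± 43.0), where only mt-Nd4l stood above its next neighbour in every library.

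**Figure D2:**
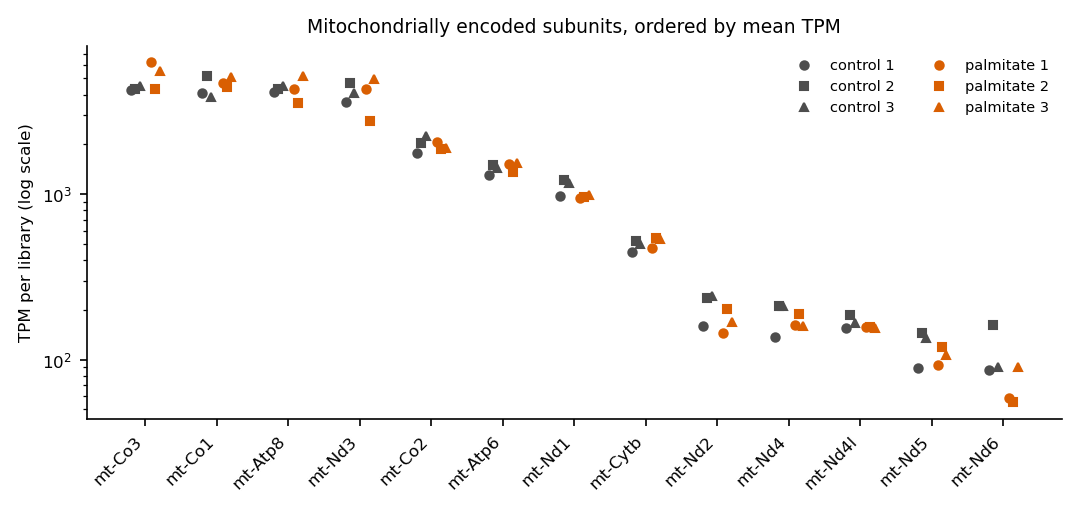
TPM of the 13 mitochondrially encoded subunits in each library, on a log scale and ordered by mean (grey, 3 controls; orange, 3 palmitate libraries; the marker shape gives the library number). The genes of complex I from mt-Nd2 on are the lowest, the groups overlap at every gene, and control 1 is the lowest control at most genes.

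Reads of neighbouring mitochondrial genes are hard to assign because some reading frames overlap and lie on 1 RNA. The shared stretches are shown because a read there belongs to both genes. In the GENCODE M21 annotation mt-Atp8 (204 bases) and mt-Atp6 (681 bases) share 43 bases, and mt-Nd4l (297 bases) and mt-Nd4 (1378 bases) share 7; capitals mark the start codon of the second gene of each.
mt-Atp8 and mt-Atp6: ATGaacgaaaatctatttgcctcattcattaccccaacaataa
mt-Nd4l and mt-Nd4: ATGctaa
Although mt-Atp8 and mt-Atp6 are known to lie on 1 RNA, they were listed at 4313 and 1416 TPM in control. In the matrix, control libraries 1, 2 and 3 held 5542, 5246 and 6457 reads of mt-Atp8. For mt-Atp6 they held 13238, 13704 and 15448 reads. TPM uses effective lengths and not the full lengths given above, and the part of that correction in the gap was not tested.

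Among the nuclear subunits of complex I, 3 of 35 tested genes rose, 0 fell and 32 did not pass (1 lower at an unadjusted p under 0.05 with edgeR; DESeq2 called 1 lower and limma-voom 0). Their median log2 fold change was 0.01. The 3 were Ndufs7, which holds the last iron-sulfur cluster before ubiquinone, and the accessory subunits Ndufa2 and Ndufa3.

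Ndufa3 had 51.0, 42.2 and 44.2 CPM in control libraries 1, 2 and 3 and 61.5, 60.4 and 69.0 CPM in palmitate libraries 1, 2 and 3, with no overlap. It rose by 0.47 ± 0.10 on the log2 scale (adjusted p = 0.0143, edgeR; kept in 4 of 6 fits that left out 1 library). Ndufa2 had 41.6, 33.2 and 34.4 CPM and 46.8, 46.3 and 50.3 CPM, and Ndufs7 18.9, 15.4 and 18.4 CPM and 23.0, 21.6 and 25.5 CPM. All palmitate libraries of both genes lay above all controls. Ndufa2 rose by 0.39 ± 0.10 (adjusted p = 0.0305) and Ndufs7 by 0.41 ± 0.11 (adjusted p = 0.0347), each called in 1 of the 6 fits. When reads were summed over transcripts with length offsets the values were 0.34 (adjusted p = 0.0604) and 0.36 (adjusted p = 0.0751, all edgeR), which do not pass.

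Ndufb7, an accessory subunit of the membrane arm, had 23.5 ± 3.73 CPM in control and 31.4 ± 5.36 with palmitate, which differed by 0.42 ± 0.15 on the log2 scale (adjusted p = 0.0869; 0.0186 with the block, edgeR). The most abundant per length of the 36 nuclear complex I subunits chosen by symbol, the accessory Ndufa5, stood at 388 TPM in control and 368 TPM with palmitate (log2 fold change -0.06 ± 0.08). Ndufs1, the largest core subunit, had 226, 216 and 234 CPM in the controls and 197, 199 and 199 CPM with palmitate. These groups did not overlap, yet its log2 fold change of -0.18 ± 0.06 missed the threshold (adjusted p = 0.0745, edgeR; 0.0295 with DESeq2).

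The assembly factors of complex I divided. Of 8 tested, 3 fell and 1 rose. Ndufaf4, which works with Ndufaf3 on the arm that joins the ubiquinone site to the membrane, had 103, 108 and 113 CPM in the controls and 83.1, 83.2 and 79.3 CPM with palmitate. The groups were far apart compared with their spread, and it fell by 0.40 ± 0.07 on the log2 scale (adjusted p = 0.00764, edgeR; kept in 6 of 6 fits, from -0.43 to -0.36). Its partner Ndufaf3 went the other way, from 3.54, 2.00 and 3.21 CPM to 5.81, 5.98 and 6.26 CPM, a rise of 1.04 ± 0.23 (adjusted p = 0.0171; kept in 4 of 6). Ndufaf3 overlaps Impdh2 on the opposite strand by 48 bases. Impdh2 had 789 CPM in control and 613 CPM with palmitate (log2 fold change -0.36, adjusted p = 0.0209, edgeR). Whether counting used strand was not given in the sources used here.

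Ndufaf6, a factor needed for mt-Nd1 to mature, fell by 0.48 ± 0.11 (adjusted p = 0.0199; kept in 2 of 6), from 18.7, 21.4 and 19.6 CPM to 12.8, 15.3 and 14.9 CPM. Ndufaf2, a chaperone of late assembly, fell by 0.34 ± 0.10 (adjusted p = 0.0477; kept in 0 of 6). It had 23.6, 21.9 and 20.4 CPM in the controls and 15.9, 18.9 and 17.3 CPM with palmitate, without overlap, and its adjusted p was 0.0949 with upper-quartile scaling (all edgeR).

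**Figure D3:**
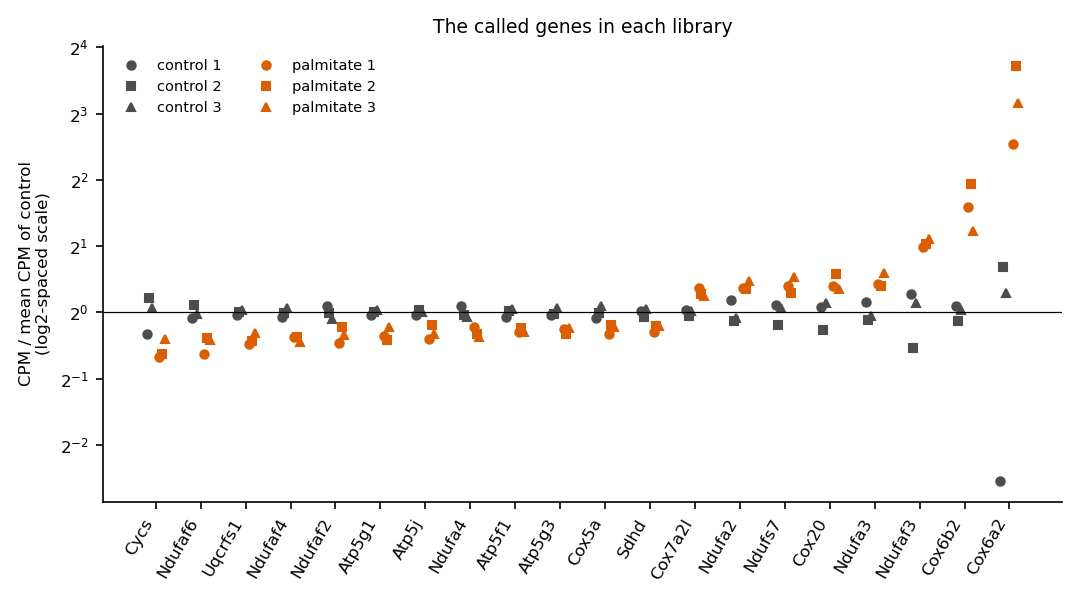
CPM of the 20 called genes in each library, divided by the control mean and drawn on a log2-spaced scale (grey, 3 controls; orange, 3 palmitate libraries; marker shape gives the library number). The 12 genes on the left fell and the 8 on the right rose, with the widest spread at Cox6a2, whose control 1 value rests on 1 read.

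Complex II, succinate dehydrogenase, links the respiratory chain to the citric acid cycle. Of its 4 subunits 1 fell: Sdhd, a membrane anchor and the most abundant of the 4 at 226 TPM over all libraries. It had 206, 195 and 212 CPM in the controls and 166, 178 and 176 CPM with palmitate, with no overlap. The fall of 0.24 ± 0.07 (adjusted p = 0.0376, edgeR) was called in 0 of 6 fits that left out 1 library, and with upper-quartile scaling it was 0.18 (adjusted p = 0.0903). The catalytic flavoprotein Sdha had 281, 277 and 256 CPM and 244, 233 and 241 CPM, groups that did not overlap either, at a log2 fold change of -0.18 ± 0.07 (adjusted p = 0.0891, edgeR; 0.0410 with DESeq2). The iron-sulfur subunit Sdhb gave -0.05 ± 0.08 and the other anchor Sdhc 0.00 ± 0.07. None of the 4 assembly factors of complex II passed (DESeq2 and limma-voom called 0 too, and 0 had an unadjusted p under 0.05 in edgeR).

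In complex III, 1 of 9 nuclear subunits fell and the other 8 did not pass. It was Uqcrfs1, the Rieske iron-sulfur protein that carries electrons between the ubiquinol site and cytochrome c1. It had 230, 236 and 243 CPM in the controls and 170, 175 and 191 CPM with palmitate. The gap between the groups was wider than the range within either, and the fall was 0.40 ± 0.07 on the log2 scale (adjusted p = 0.00855, edgeR; kept in 5 of 6 fits, lost without control library 3 at -0.39 with an adjusted p of 0.0506). The other nuclear electron carrier of the complex, cytochrome c1 (Cyc1), gave -0.07 ± 0.08, and the most abundant subunit, the hinge protein Uqcrh, stood at 692 TPM in control and 739 TPM with palmitate (0.06 ± 0.08).

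Cytochrome c, the small haem protein that carries electrons from complex III to complex IV and that triggers apoptosis when released, is coded in somatic cells by Cycs. It had 203, 294 and 265 CPM in the controls and 159, 164 and 193 CPM with palmitate. Control library 1 lay close above palmitate library 3 and the other controls far above it. Cycs fell by 0.56 ± 0.14 (adjusted p = 0.0276, edgeR), the largest fall among the 20 called genes. The call was kept in 2 of 6 fits, and the value ranged from -0.71 to -0.45 in them.

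Of the 14 nuclear complex IV subunits tested, 3 rose and 2 fell. Of the 12 that are expressed in most tissues, 1 rose, 2 fell and 9 did not pass. Cox5a, a matrix-side subunit, had 168, 179 and 191 CPM in the controls and 143, 158 and 153 CPM with palmitate, and fell by 0.24 ± 0.07 (adjusted p = 0.0482; kept in 1 of 6, and at 0.0952 with upper-quartile scaling, edgeR). Ndufa4, first described in complex I and since placed in complex IV, was the most abundant nuclear complex IV subunit at 1177 ± 38.0 TPM in control and 1049 ± 111 with palmitate. The matrix held 35.6% of the reads of its transcripts. In the matrix it had 107, 98.1 and 95.9 CPM and 86.6, 79.9 and 77.6 CPM and fell by 0.30 ± 0.08 (adjusted p = 0.0263, edgeR, kept in 2 of 6). With upper-quartile scaling it was not called. Summed over all transcripts with length offsets the value was -0.22 (adjusted p = 0.0702) and without offsets -0.14 (adjusted p = 0.182, edgeR).

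Cox7a2l, a relative of the Cox7a subunits that links complexes III and IV into a supercomplex, had 195, 183 and 194 CPM in the controls and 246, 230 and 225 CPM with palmitate. The groups did not overlap. It rose by 0.29 ± 0.07 (adjusted p = 0.0203, edgeR; kept in 1 of 6). The common isoforms Cox6a1, Cox6b1, Cox6c, Cox7a2 and Cox7b had log2 fold changes from -0.01 to 0.04, and Cox4i1 and Cox8a of -0.13 and -0.14 (adjusted p = 0.372 and 0.148, edgeR).

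The tissue-restricted isoforms of complex IV were at the floor of detection or low. Cox6a2, the heart and skeletal muscle form of subunit 6a, had 1, 8 and 7 reads in the controls and 29, 67 and 30 with palmitate. On the CPM scale that was 0.20 ± 0.15 and 1.86 ± 0.73 (SD, n = 3 each), a rise of 3.22 ± 0.59 on the log2 scale (adjusted p = 0.00995, edgeR; kept in 5 of 6). Per length it reached 4.65 TPM with palmitate, beside 247 TPM of the common form Cox6a1. Cox6b2, the form of the testis, had 15, 11 and 14 reads in the controls and 36, 47 and 19 with palmitate, the 19 being from the shallowest library, and rose by 1.61 ± 0.31 (0.48 ± 0.04 to 1.48 ± 0.36 CPM, adjusted p = 0.0112; kept in 5 of 6).

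The other 6 tissue isoforms had too few reads to be tested. The muscle form Cox7a1 had 0.41 ± 0.10 CPM in control and 0.40 ± 0.18 with palmitate. Cox7b2, Cox8b and Cox8c had no read in any library, while Cox4i2 and Ndufa4l2 had 1 read each, in palmitate library 1. The markers of B and plasma, erythroid and CD4 T cells given above were higher with palmitate as the 2 low isoforms were, and their part in these values was not tested.

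Of the 9 complex IV assembly factors 1 rose. Cox20, the chaperone of newly made mt-Co2, had 14.2, 11.2 and 14.9 CPM in the controls and 17.7, 19.97 and 17.1 CPM with palmitate, without overlap. It rose by 0.44 ± 0.13 (adjusted p = 0.0451; kept in 1 of 6, and at 0.0518 in transcript sums with length offsets, edgeR). By 1586 bases it overlaps Hnrnpu on the opposite strand, an abundant gene of 1022 CPM in control and 889 CPM with palmitate. Cox17, the copper chaperone, gave -0.30 ± 0.14 (adjusted p = 0.155), and with the replicate block -0.31 (adjusted p = 0.0144, edgeR).

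In complex V, 4 of 17 nuclear subunits fell, 0 rose and 13 did not pass, where 11.7% of all tested genes fell and 11.1% rose. Transcript sums with length offsets called 3 lower, without Atp5g1. At an unadjusted p under 0.05 the counts were 6 lower and 1 higher in edgeR, and DESeq2 and limma-voom called 0 higher. All 4 lie in the membrane rotor or in the stalk that holds the catalytic head still: Atp5f1 (subunit b) and Atp5j (F6) of the stalk, and Atp5g1 and Atp5g3, which code for the same mature c subunit of the rotor ring. None of the 5 subunits of the F1 head passed (DESeq2 and limma-voom called 0, and in edgeR 1 lower and 1 higher had an unadjusted p under 0.05). Its catalytic subunit Atp5b, the most abundant nuclear gene of the set at 1688 TPM in control and 1671 TPM with palmitate, had 1994, 1990 and 2025 CPM and 1809, 1996 and 1955 CPM (log2 fold change -0.06 ± 0.07).

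Atp5f1 had 448, 474 and 484 CPM in the controls and 380.5, 398 and 383 CPM with palmitate and fell by 0.28 ± 0.07 (adjusted p = 0.0244). Atp5j had 125, 131 and 128 CPM and 96.7, 112 and 102 CPM and fell by 0.31 ± 0.07 (adjusted p = 0.0231, both edgeR and both kept in 2 of 6). Neither gene's groups overlapped. Atp5j overlaps Gabpa on the opposite strand by 701 bases. Gabpa codes for an ETS factor of respiratory promoters and fell by 0.36 ± 0.09 (adjusted p = 0.0286, edgeR, kept in 1 of 6). With the replicate block the membrane subunits Atp5j2 (0.25, adjusted p = 0.0423) and Atp5md (-0.30, adjusted p = 0.0284) passed as well, where without it they had adjusted p of 0.159 and 0.0933 (edgeR).

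For the c subunit genes the value depended on how reads of their transcripts were combined. In the matrix Atp5g3 had 293, 298 and 315 CPM in the controls and 254, 240 and 255 CPM with palmitate and fell by 0.27 ± 0.07 (adjusted p = 0.0247; kept in 2 of 6). Atp5g1 had 219, 226 and 231 CPM and 176, 169 and 193 CPM and fell by 0.33 ± 0.07 (adjusted p = 0.0172; kept in 4 of 6). With reads summed over transcripts and corrected for their lengths, the value of Atp5g3 was -0.34 (adjusted p = 0.0202) and that of Atp5g1 0.074 (adjusted p = 0.655, all edgeR), the opposite sign. Atp5g2, the least expressed of the 3, gave 0.47 ± 0.24 (adjusted p = 0.188).

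Atp5g1 is read mainly as a short transcript model of 596 bases (ENSMUST00000107684) and a long one of 4715 bases (ENSMUST00000090541), both protein coding. The long one had 27.5, 34.9 and 34.9 TPM in control libraries 1, 2 and 3 and 16.5, 17.1 and 17.1 TPM in palmitate libraries 1, 2 and 3. The short one had 334, 273 and 268 TPM and 345, 291 and 373 TPM, and its groups overlapped. Per length the long model was thus the minor form, but being long it took 54.3% ± 7.04 of the gene's reads in control and 34.7% ± 1.97 with palmitate (SD, n = 3 each; exact permutation test, two-sided p = 0.1, the smallest that 3 against 3 libraries allow). Tested as single transcripts, in a test added after the data had been seen, the long model differed by -1.04 ± 0.15 (adjusted p = 0.0615) and the short one by 0.15 ± 0.12 (adjusted p = 0.602, both log2 scale and edgeR). In that test 0 of 39731 transcripts passed, 6297 had an unadjusted p under 0.05, and limma-voom also called 0.

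The main Atp5g3 model, of 714 bases (ENSMUST00000018914), went from 776, 864 and 823 TPM to 689, 647 and 652 TPM, with no overlap. By TPM, Atp5g1 made up 26.8% ± 2.38 of the c subunit RNA in control and 32.5% ± 1.62 with palmitate, and Atp5g3 72.3% ± 2.45 and 66.2% ± 1.36. The highest control share of Atp5g1 was 29.5% and the lowest with palmitate 31.0%, so these did not overlap. The 3 genes together had 1238 ± 10.4 TPM in control and 1110 ± 76.4 with palmitate, also without overlap.

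**Figure D4:**
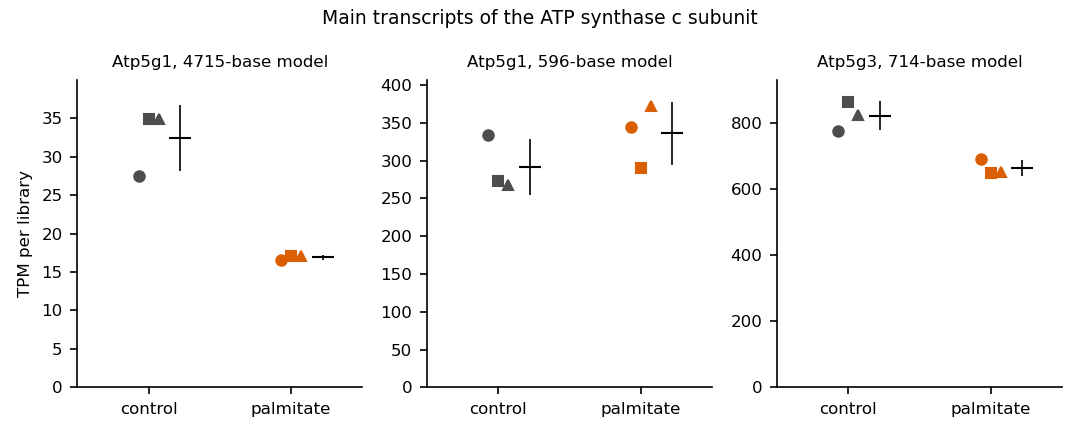
TPM in each library of the long and the short transcript model of Atp5g1 and of the main model of Atp5g3, the genes of the ATP synthase c subunit (grey, 3 controls; orange, 3 palmitate libraries; cross bars, mean with 1 SD; each panel has its own axis from 0). The long Atp5g1 model and Atp5g3 are lower in every palmitate library, while the short Atp5g1 model overlaps between groups.

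Sums per length over the genes of each genome overlapped between the groups. The 13 mitochondrial subunits summed to 23036 ± 1766 TPM in control and 24076 ± 3104 with palmitate, and the 87 nuclear subunits to 28382 ± 624 and 27639 ± 453 TPM (SD, n = 3 each). For the mitochondrial subunits of complex I alone, the log2 value of the summed TPM was -0.11, palmitate over control. That value was 0.052 without palmitate library 2 and stayed negative when any other single library was left out. Subunits of both genomes together made up 5.14% ± 0.114 of all TPM in control and 5.17% ± 0.352 with palmitate, and the mitochondrial genes took 44.8% ± 2.44 and 46.4% ± 2.95 of that.

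By complex, the nuclear subunits of complex IV were the one group of nuclear subunits with several members whose summed TPM did not overlap between groups. They had 8064, 7981 and 7966 TPM in the controls and 7809, 7473 and 7487 TPM with palmitate, a mean difference of -5.17%. On the log2 scale that was -0.077. With CPM of the matrix in place of TPM it was -0.044, and those sums overlapped between groups, so the separation depended on the measure. The sums for complex I were 5779 ± 143 and 5948 ± 112 TPM, for complex II 598 ± 27.7 and 562 ± 25.1, for complex III 2820 ± 112 and 2783 ± 40.5, and for complex V 11066 ± 321 and 10671 ± 224 TPM, each overlapping. The 22 assembly factors and other proteins summed to 1061 ± 58.6 TPM in control and 958 ± 69.4 with palmitate.

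In complexes I, III, IV and V the mean TPM of a mitochondrial gene was above the mean of a nuclear subunit gene in every library. In control the ratio was 5.42 ± 0.869 in complex I, 1.56 ± 0.180 in complex III and 4.41 ± 0.286 in complex V, and with palmitate 4.88 ± 0.894, 1.67 ± 0.101 and 4.63 ± 0.622 in that order (SD, n = 3 each). In complex IV it was 5.37 ± 0.395 and 6.37 ± 0.564 over the 12 widely expressed nuclear subunits, a choice made after the values had been seen, and 8.95 ± 0.657 and 10.6 ± 0.943 over all 20, of which 8 are tissue isoforms that summed to 4.49 TPM in control. The groups overlapped in each.

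Many nuclear respiratory genes are known to be bound by NRF1 and by ETS factors such as GABP close to their start sites. RefSeq promoter windows of 300 bases (250 before and 50 after the start, build GRCm38.p6) were found for 89 of the 109 nuclear genes. The NRF1 letters GCGCNNGCGC stood in a window of 23 of the 89 genes (25.8%), and in 7.0% of all 27025 genes with a window, on either strand. The ETS letters CCGGAAG stood in 27 (30.3%) against 9.9%, and the YY1 letters AAGATGGCG in 9 (10.1%) against 1.6%. The share with NRF1 letters was 4 of 7 genes in complex II and 1 of 21 in complex IV. By response, NRF1 letters stood in 3 of 11 genes that fell, 0 of 6 that rose and 20 of 68 that did not pass.

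The stretches around the NRF1 letters of the 3 genes that fell and hold them are shown for their place relative to the start. Capitals mark the NRF1 letters and, in Sdhd, the ETS letters on the opposite strand (CTTCCGG). The match begins 113 bases before the start in Ndufaf4 (chr4:24897933-24898082, plus strand), 79 bases before it in Sdhd (chr9:50603850-50603949, minus strand), and at base 13 after it in Atp5g3 (chr2:73911295-73911324, minus strand), all in GRCm38.p6 and written 5′ to 3′ along the gene.
Ndufaf4: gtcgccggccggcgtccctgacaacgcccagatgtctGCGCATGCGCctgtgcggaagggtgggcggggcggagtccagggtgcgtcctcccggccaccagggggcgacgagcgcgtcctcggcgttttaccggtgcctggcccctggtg
Sdhd: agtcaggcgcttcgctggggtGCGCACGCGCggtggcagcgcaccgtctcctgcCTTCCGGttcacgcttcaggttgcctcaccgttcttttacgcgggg
Atp5g3: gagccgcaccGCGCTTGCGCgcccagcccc
A match describes these letters and does not show that a factor binds there.

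Genes that supply or assemble the same machinery under other names were listed separately, as 104 genes in 9 lists, of which 98 were tested. Of these 8 rose and 15 fell, where 11.1% and 11.7% of all tested genes did, and the block gave 10 and 21, where it gave 16.5% and 16.6% of all genes. These shares are also the background of the counts by list below. Other assembly factors of complex I had 0 higher and 2 lower of 11 tested (1 higher at an unadjusted p under 0.05, edgeR; 0 with DESeq2 and limma-voom), with a median log2 fold change of -0.20. Aifm1, a flavoprotein of the intermembrane space required for the import of respiratory proteins, fell by 0.46 ± 0.08 (78.9 ± 4.36 to 57.3 ± 2.87 CPM, adjusted p = 0.00718; kept in 6 of 6), and the membrane factor Timmdc1 by 0.39 ± 0.08 (adjusted p = 0.0122, both edgeR; kept in 5 of 6).

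Of 6 other complex III factors 2 rose and 0 fell (0 lower also at an unadjusted p under 0.05 in edgeR and with DESeq2 and limma-voom). Bcs1l, the AAA protein that moves Uqcrfs1 into the complex, rose by 0.75 ± 0.12 (8.37 ± 0.892 to 14.1 ± 0.121 CPM, adjusted p = 0.00684), and Uqcc3, a factor for cytochrome b, by 1.08 ± 0.17 (6.66 ± 1.49 to 14.1 ± 0.287 CPM, adjusted p = 0.00627, both edgeR and both kept in 6 of 6). Among 5 ATP synthase factors, Tmem70, which is needed for the c ring, fell by 0.47 ± 0.07 (98.7 ± 6.03 to 71.3 ± 3.06 CPM, adjusted p = 0.00629; kept in 6 of 6), and Tmem242 rose by 0.27 ± 0.08 (adjusted p = 0.0486; kept in 0 of 6).

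Of 22 genes tested from a list made for further complex IV factors and mitochondrial RNA proteins, 1 rose and 3 fell. Fam162a was placed in that list without evidence here of either role. Slirp, which stabilises mitochondrial messenger RNA, fell by 0.44 ± 0.10 (adjusted p = 0.0183; kept in 4 of 6), and Fastkd3, another RNA protein of the organelle, by 0.86 ± 0.19 (adjusted p = 0.0189; kept in 4 of 6; 26.7% of its reads were in the matrix and the transcript sums with offsets gave -0.60). Fam162a fell by 0.41 ± 0.12 (adjusted p = 0.0427; kept in 1 of 6), and Fastk, which acts on mitochondrial RNA, rose by 0.36 ± 0.09 (adjusted p = 0.0225, all edgeR; kept in 1 of 6).

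The supply of the mobile carriers changed in single genes. Hccs, which attaches haem to cytochrome c, fell by 0.54 ± 0.12 (140 ± 23.7 to 96.2 ± 6.03 CPM, adjusted p = 0.0199; kept in 1 of 6), beside the fall of Cycs. Fech, the last enzyme of haem synthesis, fell by 0.93 ± 0.26 (adjusted p = 0.0375; kept in 1 of 6), but the matrix held 18.1% of its reads and the transcript sums with offsets gave -0.25 (adjusted p = 0.132, edgeR). Of 13 genes for coenzyme Q, Pdss1, which makes the isoprenoid tail, fell by 0.52 ± 0.09 (adjusted p = 0.00894; kept in 5 of 6) and the methyltransferase Coq5 by 0.28 ± 0.07 (adjusted p = 0.0279; kept in 1 of 6). The methyltransferase Coq3 rose by 0.53 ± 0.09 (13.7 ± 0.840 to 19.8 ± 0.0490 CPM, adjusted p = 0.00868, all edgeR; kept in 6 of 6).

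The electron transfer flavoprotein carries electrons from fatty acid oxidation towards ubiquinone. Etfdh, the oxidoreductase that delivers them, rose by 0.39 ± 0.08 (61.4 ± 2.03 to 80.2 ± 5.16 CPM, adjusted p = 0.0119; kept in 5 of 6). Of the 2 subunits of the flavoprotein itself, Etfb rose by 0.37 ± 0.09 (adjusted p = 0.0234; kept in 2 of 6; 0.15 in transcript sums with offsets, adjusted p = 0.285) and Etfa fell by 0.30 ± 0.09 (adjusted p = 0.0370, all edgeR; kept in 1 of 6).

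Of 10 tested carriers and channels for adenine nucleotides, phosphate and protons, 1 rose and 2 fell, and the block gave 2 and 6. Vdac1, the outer membrane channel, fell by 0.39 ± 0.10 (adjusted p = 0.0265) and the ADP/ATP carrier Slc25a4 by 0.23 ± 0.07 (adjusted p = 0.0481), while the ATP-Mg/phosphate carrier Slc25a25 rose by 0.38 ± 0.09 (adjusted p = 0.0211, all edgeR; kept in 1, 1 and 2 of 6). Among 14 regulators of respiratory genes 0 rose and 2 fell (0 higher also at an unadjusted p under 0.05, edgeR, and with DESeq2 and limma-voom). They were Gabpa, given above, and Tfam, which packs and transcribes mitochondrial DNA and fell by 0.42 ± 0.08 (150 ± 12.2 to 112 ± 6.03 CPM, adjusted p = 0.0115, edgeR; kept in 5 of 6).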

How the data were processed

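RNA-seq libraries of CD8+ T cells (3 control, 3 palmitate) were analysed from the values the authors deposited. Per the submitters' processing notes, Salmon 1.10.0, Trim Galore 0.6.10, DESeq 1.42.0 and build GRCm39 took part, without role or order; a SMARTER mRNA-Seq kit is named in the labels' protocols. The authors deposited a gene matrix of estimated counts written as whole numbers (expected counts) and, per library, a Salmon table of transcript lengths, expected counts and TPM values. All matrix columns were used (0 left out). Symbols came from GENCODE M21 (121 genes) and a RefSeq table (1 gene, Atp5md); genomic positions are given only from the RefSeq promoter table, in its build GRCm38.p6.

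Matrix counts were tested with edgeR 4.0.16 (R 4.3.3) by TMM scaling, its low-count filter (12068 genes left), a quasi-likelihood fit with the group as the only term, the two-sided quasi-likelihood test and Benjamini-Hochberg adjustment over all tested genes at 0.05. Every adjusted p without another name comes from it. Log2 fold changes are of palmitate over control, with their SE. TPM was summed over each gene's transcripts; 99.5% of reads matched a gene. Alternatives were upper-quartile and RLE scaling, testing without a filter, a mean of at least 5 CPM, DESeq2 1.42.0, limma-voom (limma 3.58.1), a replicate block, transcript sums with and without length offsets, and each library left out; a single-transcript test was added after the data had been seen. The procedure was run on simulated counts with the same dispersion for every gene and no replicate effect. That run does not measure its error rate on these libraries.

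Whether libraries sharing a replicate number belong together is not given. Deviations from the group means correlated at 0.226, 0.13 and 0.152 across genes between libraries sharing a number. Between the others the correlations were -0.185 to 0.061. The main test does not pair libraries and the replicate block does, so both are given. Salmon divides reads between near-identical transcripts, which makes related genes uncertain; so are opposite-strand pairs, as the use of strand is not stated in the labels.

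The genes named were every called member, the 13 mitochondrial subunits, the most abundant and the called or smallest-p nuclear subunit of each complex, complex IV and c subunit isoforms, and up to 4 called genes of each further list; Ndufs1, Sdha, Sdhb, Sdhc, Cyc1, Ndufb7, Cox17, Atp5j2 and Atp5md, and in the closing section Ndufa9, Ndufs8, Ndufs4, Sdhaf2 and Ndufb1, were named after their values had been seen. The members and lists were chosen with earlier results of these data known.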

Additional observations from a re-analysis of the deposited data

How the results depend on the processing

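Leaving out 1 library at a time gave 690 to 3433 called genes in all (2759 with 6 libraries), 0 to 11 higher members (8) and 1 to 15 lower members (12), with the lowest of each without control library 3. Transcript sums with length offsets called 5 members higher and 10 lower, upper-quartile scaling 9 and 8, and DESeq2 8 and 16; upper-quartile scaling moved the median of all tested genes from 0.02 to 0.08. The replicate block gave 10 higher and 16 lower members and 3993 genes in all, and ended none of the 20 calls; it added 6, those of mt-Nd1, mt-Nd2, Ndufb7, Cox17, Atp5j2 and Atp5md. RLE scaling changed no member's call. In the further lists, Fastk, Tmem242, Coq5 and Etfa missed the threshold with length offsets (adjusted p = 0.0777, 0.0861, 0.0766 and 0.0511, edgeR), besides Fech and Etfb. Fam162a, Coq5, Etfa and Slc25a4 missed it with upper-quartile scaling (adjusted p = 0.0608, 0.0663, 0.0617 and 0.0986, edgeR), and Tmem242 with RLE scaling (adjusted p = 0.0523, edgeR). Atp5g1 changed sign, to 0.074 in transcript sums with offsets and 0.15 for its short transcript alone, where the length of the transcripts is accounted for. Summed CPM of the matrix in place of TPM gave log2 values of 0.0024 against 0.042 for nuclear complex I, -0.069 against -0.018 for complex III, -0.044 against -0.077 for complex IV and -0.072 against -0.038 for all nuclear subunits; the cause was not tested. A mean of at least 5 CPM leaves low members such as Cox6a2 without a value. With 3 libraries per group, small differences could not be told from the spread between libraries, and Cox6a2 and Cox6b2 rest on 67 or fewer reads per library.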

Other observations

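The gene matrix held under 90% of the transcript reads of 13 of the 122 genes, 12 of them tested. Ndufa9, a complex I subunit, had 0.228% of its reads in the matrix and too few there to be tested, although its transcripts had 118 ± 8.88 TPM in control and 118 ± 4.54 with palmitate (SD, n = 3 each; log2 fold change -0.05 in transcript sums with offsets, adjusted p = 0.683, edgeR). The core subunit Ndufs8 had 5.32% of its reads there, the complex II factor Sdhaf2 6.81% and the complex I subunit Ndufs4 15.8%, and their values in the transcript sums with offsets were 0.02, -0.06 and -0.05 (adjusted p = 0.912, 0.638 and 0.692, edgeR). The accessory complex I subunit Ndufb1, listed as Ndufb1-ps in GENCODE M21, has no row in the matrix and is not among the 122. Its transcripts had 493 ± 46.5 TPM in control and 433 ± 26.3 with palmitate, and the groups overlapped (log2 fold change -0.24, adjusted p = 0.133, edgeR).

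Of the 20 called genes, 8 overlap another gene on the opposite strand in that annotation. Many genes that were not called do so too, such as Ndufb5 with Mrpl47 and Ndufs3 with Kbtbd4, and the shares were not compared. Besides Ndufaf3, Atp5j and Cox20, described above, these are Atp5f1 with Wdr77 (731 bases, -0.21, adjusted p = 0.0640), Ndufa2 with Tmco6 (66 bases, 0.13, adjusted p = 0.431), Ndufa3 with Tfpt (4 bases, -0.02, adjusted p = 0.906), Ndufaf2 with Smim15 (4727 bases, -0.13, adjusted p = 0.216) and Cox6a2 with Itgad (953 bases), which had 0.124 CPM and was not tested (bases shared, then log2 fold changes and adjusted p of the neighbour, edgeR).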
